A study of Mus musculus with 6 samples.

Results

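Imprinted genes and the methylated regions that control them were examined in reduced representation bisulfite sequencing (RRBS) of CD8+ T cells. The set was a fixed list of 40 imprinted mouse genes in 26 loci, where a locus joins genes that overlap or share a control region. For each gene, the CpGs of the gene body and of 5 kb on either side were taken if all 6 libraries covered them with at least 5 reads. They were gathered into CpG islands and, outside islands, into bins of 1 kb, and a region needed at least 3 such CpGs. Of 134342 regions measured across the genome, 195 with 1502 CpGs lay at these genes. Within them, the regions whose methylation was 30 to 70% when the reads of all 6 libraries were pooled were kept apart from the rest. There were 52 of them, 17 islands and 35 bins with 450 CpGs, against 143 regions at other levels. A region was measured for 39 of the 40 genes, all but Ndn, and a region at 30 to 70% for 31 genes in 21 loci.

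At an imprinted locus the copies inherited from mother and father differ in DNA methylation and in activity. The mark is laid down in the egg or the sperm at a germline control region, is kept through the wave of demethylation after fertilization by the zinc finger proteins ZFP57 and ZFP445 with TRIM28 and DNMT1, and is then copied in every somatic cell, T cells included. A cell that has kept the mark carries a methylated and an unmethylated copy side by side. A level between the extremes in a bulk library can come from such cells or from a mixture of fully methylated and unmethylated cells, and these cannot be told apart here, because the mice were inbred and the files give reads per CpG and not per molecule or parental copy.

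The study compared 3 genotypes of C57BL/6N mice: wild-type mice (WT), mice with a human STAT5B transgene (hSTAT5B +/T) and mice with the transgene carrying the N642H change found in T cell neoplasia (hSTAT5BN642H +/T). Each genotype was represented by 2 libraries, with 1 transgenic line per transgene. Both transgenes were driven by the Vav1 promoter, which is active in all blood cells, and the hSTAT5BN642H mice were the diseased line. Mice were 13 weeks old, and CD8+ T cells were enriched from lymph nodes with a magnetic kit. Libraries held 43291086 to 67007186 reads over CpGs and 2597893 to 3445555 CpGs, and 1192344 CpGs had at least 5 reads in all 6. The sources do not say that both libraries of a genotype came from separate mice, and the sample names of the hSTAT5BN642H libraries share a stem, so p-values measure only the spread between these libraries. The level of a region is the mean of the percentages of methylated reads of its CpGs. Reads carried no molecular identifiers, so read numbers overstate the number of molecules.

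Sequences of 4 measured regions are shown because they hold, or lack, the hexamer TGCCGC that ZFP57 recognizes when its CpG is methylated. Each is 300 bases of the plus strand of GRCm38.p6 around the measured CpGs, with the hexamer or its reverse complement GCGGCA in capitals. The Snrpn/Snurf stretch, chr7:60004591-60004890, lies in an intron of both genes close to the start of Snurf and holds 4 hexamers. The Airn stretch, chr17:12742179-12742478, is an intron of Igf2r and holds 3. The Peg13 stretch, chr15:72809641-72809940, is an exon of Peg13 within an intron of Trappc9 and holds 2. The H19 stretch, chr7:142581115-142581414, lies upstream of H19, where the mark comes from sperm, and holds none. Only these 300 bases of its bin were searched. Windows at maternally marked loci also lacked the hexamer, among them those of the Zrsr1 and Kcnq1ot1 islands and the Slc38a4 start.
Snrpn/Snurf: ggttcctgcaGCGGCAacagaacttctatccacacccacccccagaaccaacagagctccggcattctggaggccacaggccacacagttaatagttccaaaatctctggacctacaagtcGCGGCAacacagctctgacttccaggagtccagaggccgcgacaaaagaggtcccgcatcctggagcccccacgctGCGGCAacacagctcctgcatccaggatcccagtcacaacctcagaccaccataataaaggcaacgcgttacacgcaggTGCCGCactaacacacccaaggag
Igf2r/Airn: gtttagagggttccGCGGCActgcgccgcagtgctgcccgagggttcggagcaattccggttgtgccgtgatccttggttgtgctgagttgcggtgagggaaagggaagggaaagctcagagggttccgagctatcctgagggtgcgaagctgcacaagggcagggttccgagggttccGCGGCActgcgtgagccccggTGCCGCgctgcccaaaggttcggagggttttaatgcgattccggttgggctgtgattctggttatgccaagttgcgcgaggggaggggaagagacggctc
Peg13/Trappc9: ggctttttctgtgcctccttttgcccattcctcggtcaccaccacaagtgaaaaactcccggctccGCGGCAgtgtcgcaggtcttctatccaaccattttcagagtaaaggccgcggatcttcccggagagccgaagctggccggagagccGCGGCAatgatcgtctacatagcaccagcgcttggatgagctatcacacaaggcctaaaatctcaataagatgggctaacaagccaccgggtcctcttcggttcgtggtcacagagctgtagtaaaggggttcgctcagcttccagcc
H19: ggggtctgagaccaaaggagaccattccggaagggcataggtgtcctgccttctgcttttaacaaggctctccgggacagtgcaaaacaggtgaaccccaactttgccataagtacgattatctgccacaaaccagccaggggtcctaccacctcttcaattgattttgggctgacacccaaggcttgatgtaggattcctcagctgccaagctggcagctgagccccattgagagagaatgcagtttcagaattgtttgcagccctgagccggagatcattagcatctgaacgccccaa

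On both strands, the hexamer occurred in 18 of the 52 windows of 300 bases at imprinted regions of 30 to 70% (34.6%). Over all 134342 regions the share was 9.49%, and it was 6.55% in the 8736 autosomal regions at 30 to 70% outside imprinted genes. By kind of region, it was found in 12 of the 17 imprinted islands (70.6%) and in 25.7% of the 276 other islands at 30 to 70%, and in 6 of the 35 imprinted bins (17.1%) and 5.92% of the 8460 other bins. In the imprinted genes' regions at other levels it was present in 19 of 143 windows (13.3%). The imprinted windows had a median of 12.5 CpGs and the other autosomal ones 7, so the shares are descriptions and not matched for CpG content. Each window was centred midway between the first and last measured CpG of its region. Some held no measured CpG, among them windows with a hexamer at the Igf2r start, in Gnas and in Zrsr1.

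Outside chromosome 18, 8 measured CpGs lay inside a hexamer within the searched windows of 300 bases at imprinted regions of 30 to 70%. Measured CpGs beyond the window of their region were not searched. In the Snrpn/Snurf stretch shown above the hexamer CpG at position 60004602 was methylated at 76.0 and 58.1% in WT, 49.0 and 65.6% in hSTAT5B and 58.5 and 35.4% in hSTAT5BN642H, from 50 to 106 reads. The other Snrpn/Snurf CpG among these 8 lay at position 60005199. It gave 78.3 and 68.0% in WT, 80.0 and 87.5% in hSTAT5B and 54.9 and 57.8% in hSTAT5BN642H. Averaged over the 6 libraries the 8 CpGs ran from 44.5% for a Peg13 hexamer to 75.5% for that of Nap1l5, in regions that were chosen for a pooled level of 30 to 70%. Single libraries covered some of them with as few as 9 reads, at the Airn hexamer.

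Imprinted regions of 30 to 70% were mostly methylated more evenly along their CpGs than other autosomal regions of that level. Their pooled level had a median of 56.8%, and 27 of the 52 lay at 40 to 60%, 19 above and 6 below. Within a region, the SD between CpGs had a median of 9.54 percentage points, against 23.5 points in the other autosomal regions of 30 to 70%. Every CpG of the region was itself at 30 to 70% in 19 of 52 imprinted regions (36.5%) and in 897 of 8736 others (10.3%). At most 50% of the CpGs were so in 8 imprinted regions (15.4%) and in 55.4% of the others. Neighbouring CpGs no more than 40 bases apart differed by a median of 5.88 points in imprinted regions and 17.7 points elsewhere. The contrast was smaller among islands alone, with a median SD of 9.52 points in 17 imprinted and 16.8 points in 276 other islands. Imprinted regions were also read more deeply (median 1022.5 against 732 reads over the 6 libraries), and the part of depth in these differences was not tested.

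**Figure D1:**
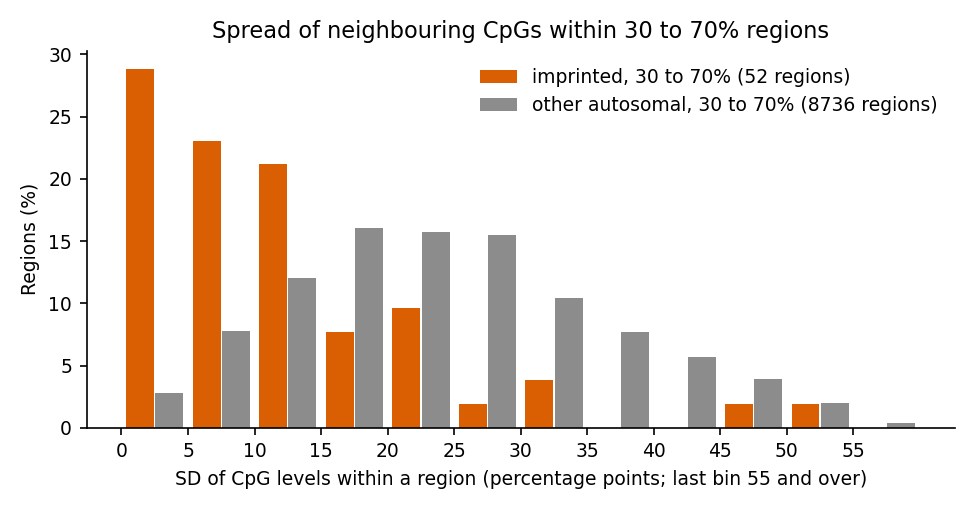
SD of CpG methylation within a region (percentage points, bins of 5) for the 52 imprinted regions and the 8736 other autosomal regions at 30 to 70%, each as a percentage of its set. The imprinted regions gather at the low end (median 9.54 points) and the others around 23.5 points.

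Part of the imprinted regions did not have this even profile, and the upper quartile of the SD between CpGs was 15.7 points. Only some of these regions are named here. Blcap at its gene start (chr2:157571001-157572000) and the bin upstream of Commd1 (chr11:22984001-22985000) had no CpG at 30 to 70%, with SDs of 48.2 and 51.3 points between 3 CpGs each, so their middle level averaged methylated and unmethylated CpGs. Inpp5f, an inositol phosphatase gene, was represented by a bin upstream of its start (chr7:128610001-128611000) that averaged 4 CpGs with an SD of 31.0 points. Its level was 30.5 and 32.7% in WT, 30.7 and 32.5% in hSTAT5B and 29.6 and 31.9% in hSTAT5BN642H, the narrowest range among the leading regions of the 21 loci. These bins had CpGs of unlike levels rather than a middle level at each CpG, which the rule of 30 to 70% does not separate.

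CpGs at middle levels were also found outside the islands. CpGs inside the 17 imprinted islands averaged 57.5% over the libraries (55.3 to 59.9%), and 205 of 274 (74.8%) were themselves at 30 to 70%. Those up to 500 bp outside averaged 64.6%, with 27 of 48 at 30 to 70%, and those at 501 to 1000 bp 57.1%, with 14 of 16. At 1001 to 2000 bp the average was 68.6%, with 11 of 17, and at 2001 to 5000 bp it was 53.6%, with 18 of 38 (47.4%). The more distant CpGs can belong to other control regions of the same locus. Of the 52 regions, 25 held a gene or transcript start, against 24 of the 143 regions at other levels.

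Among genes that restrain or drive growth, Plagl1, a zinc finger factor, had the island with the second most CpGs among those at 30 to 70%, after that of Gnas. The island at an internal transcript start (chr10:13090533-13091299, 40 CpGs in 6 MspI fragments, 733 to 1556 reads per library) was methylated at 65.9 and 65.6% in WT, 59.8 and 75.2% in hSTAT5B and 67.8 and 67.9% in hSTAT5BN642H. The hSTAT5B libraries lay on either side of all others. A smaller Plagl1 island at chr10:13060922-13061266 (13 CpGs) stood at 55.9 and 54.2% in WT, 65.1 and 67.8% in hSTAT5B and 59.2 and 67.2% in hSTAT5BN642H, with both WT libraries lowest. None of the differences at Plagl1 passed limma (adjusted p = 0.963 for hSTAT5BN642H against WT at the larger island).

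Grb10 encodes an adaptor that dampens insulin and growth factor signals. The bin at an internal start of Grb10 (chr11:12026001-12027000, 10 CpGs, 116 to 304 reads) had 52.05 and 54.3% in WT, 61.1 and 72.1% in hSTAT5B and 70.8 and 68.7% in hSTAT5BN642H. Both WT libraries were below all 4 transgenic ones, and hSTAT5BN642H minus WT was 16.59 points (69.8% ± 1.5 against 53.2% ± 1.6, SD, n = 2; limma adjusted p = 0.707). The adjoining island of 60 CpGs (chr11:12025555-12026580), just above the 70% bound at 70.7% pooled, had the opposite order, with 75.02 and 74.3% in WT, 71.1 and 65.8% in hSTAT5B and 68.7 and 73.5% in hSTAT5BN642H. Both WT libraries were above all 4 transgenic ones there, and the differences from WT were −3.55 points in hSTAT5BN642H and −6.20 points in hSTAT5B (limma adjusted p = 0.904 and 0.961). The bin at the gene start (chr11:12038001-12039000, 4 CpGs) also had WT highest, at 75.7 and 66.8% against 53.0 to 62.3% in the rest.

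Igf2r, the receptor that removes IGF2, is silenced on the paternal copy by the antisense RNA Airn, whose start within Igf2r carries the maternal germline mark, while the Igf2r start itself is methylated on the paternal copy in somatic tissue. The island at the Igf2r start (chr17:12769059-12770009, 18 CpGs, 654 to 1292 reads) had 54.9 and 57.0% in WT, 58.5 and 60.5% in hSTAT5B and 49.8 and 50.3% in hSTAT5BN642H. The 3 genotypes did not overlap there, with hSTAT5BN642H lowest and hSTAT5B highest, and the differences were −5.90 points against WT and −9.41 points against hSTAT5B (limma adjusted p = 0.903 and 0.842). The island inside Airn, next to its start (chr17:12741441-12742421, 9 CpGs), had 51.6 and 53.2% in WT, 51.98 and 73.2% in hSTAT5B and 50.9 and 47.8% in hSTAT5BN642H. A single hSTAT5B library stood apart at this Airn island.

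The Gnas locus gives rise to several transcripts, among them NESP55, the antisense Nespas, XLαs, the 1A transcript and the G protein subunit Gsα, and it held 11 of the 52 regions. Its longest island at 30 to 70% (chr2:174298464-174300644, 42 CpGs in 14 fragments, 620 to 1343 reads), in a Gnas exon upstream of Nespas, had 60.5 and 66.2% in WT, 62.9 and 65.4% in hSTAT5B and 74.7 and 59.5% in hSTAT5BN642H. The libraries of hSTAT5BN642H were the highest and the lowest of the 6. Over the 11 regions the mean was 57.2% ± 3.28 in WT, 58.8% ± 0.44 in hSTAT5B and 57.9% ± 2.85 in hSTAT5BN642H (SD, n = 2).

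At the far end of Gnas an island of 104 CpGs (chr2:174327294-174331145) fell just outside the class at 28.1% pooled because it joins unlike parts. Its first 2 measured stretches of 500 bp, on the upstream side of the Gsα start, averaged 61.5% (12 CpGs, 48.1 to 85.1% by library) and 59.0% (26 CpGs, 52.2 to 65.8%). The next 4, with 3, 37, 22 and 4 CpGs, averaged 2.68, 2.05, 0.80 and 4.17%. A middle level thus gave way to an unmethylated stretch within the same island in all 6 libraries. A short island of 5 CpGs in 1 fragment (chr2:174297263-174297532) was the least steady of the cluster, with 49.0 and 75.2% in WT, 36.8 and 28.3% in hSTAT5B and 66.8 and 44.6% in hSTAT5BN642H, and its neighbouring bin of 3 CpGs ordered the genotypes differently, with hSTAT5B highest at 73.9 and 76.2% against 51.3 to 61.4%.

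**Figure D2:**
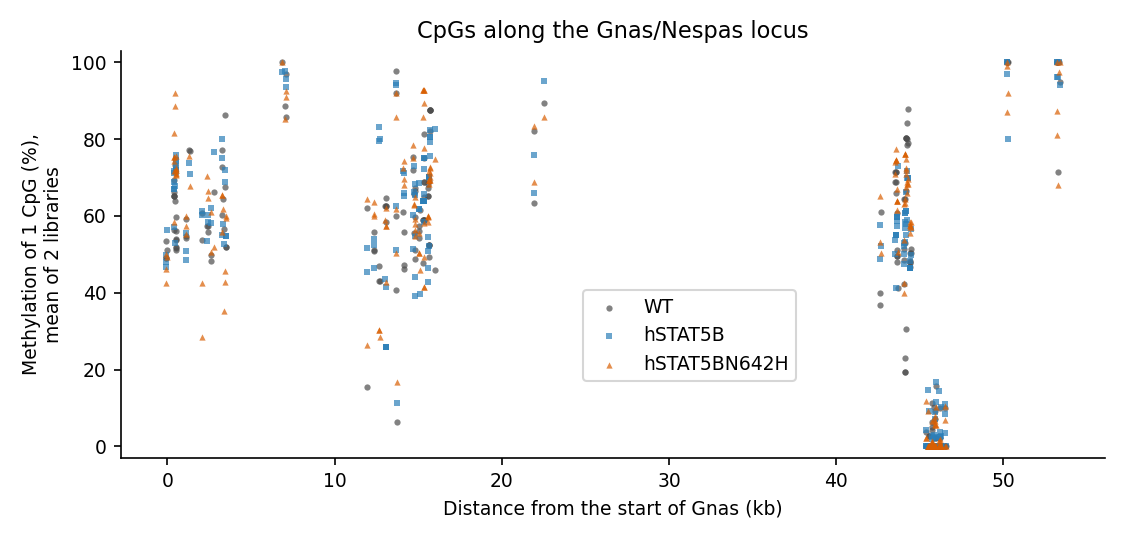
Methylation of each measured CpG (%, mean of 2 libraries per genotype) along the Gnas/Nespas locus, by distance in kb from the annotated start of Gnas. Groups of CpGs at the start, in the middle and before the last island lie mostly at middle levels in all genotypes, and those of the Gsα start lie near 0.

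Snrpn and Snurf share the control region of the cluster whose loss causes Prader-Willi syndrome in humans. The bin at their start (chr7:60005001-60006000, 6 CpGs, 117 to 286 reads) had 74.2 and 67.5% in WT, 83.1 and 71.4% in hSTAT5B and 57.9 and 58.1% in hSTAT5BN642H. Both hSTAT5BN642H libraries were below the other 4, and the mean differences were −12.86 points against WT and −19.23 points against hSTAT5B (limma adjusted p = 0.768 and 0.666). The adjoining intronic bin (chr7:60004001-60005000, 4 CpGs), whose sequence is printed above, had 70.1 and 61.4% in WT, 57.1 and 68.3% in hSTAT5B and 59.2 and 44.9% in hSTAT5BN642H. There hSTAT5BN642H was below WT in all pairs but overlapped hSTAT5B. These bins share the same libraries and adjoin each other, so they are not independent views of the locus.

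Further along that cluster, Magel2 and Mkrn3 are silenced on the maternal copy and have no germline mark of their own. The Magel2 island (chr7:62377183-62377459, 14 CpGs, 400 to 922 reads) had 39.4 and 46.3% in WT, 40.8 and 34.9% in hSTAT5B and 45.7 and 42.2% in hSTAT5BN642H. The Mkrn3 island (chr7:62419677-62420009, 9 CpGs) had 52.3 and 30.4% in WT, 46.9 and 52.4% in hSTAT5B and 42.0 and 51.2% in hSTAT5BN642H, and its widest gap was between the WT libraries. Ndn, the remaining member of the cluster, had 14 CpGs in the files and none with 5 reads in all libraries.

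Peg3, a zinc finger gene, and Usp29, a ubiquitin protease gene, diverge from a shared maternally marked island. That island (chr7:6730063-6730398, 5 CpGs in 2 fragments, 84 to 323 reads) had 72.7 and 55.8% in WT, 28.4 and 44.4% in hSTAT5B and 54.5 and 64.0% in hSTAT5BN642H. Both hSTAT5B libraries were below all others, and the difference from WT was −27.90 points (36.4% ± 11.3 against 64.3% ± 11.9, SD, n = 2; limma adjusted p = 0.760). The pooled levels of its CpGs had an SD of 2.4 points. Mest, a hydrolase gene expressed from the paternal copy, had 3 bins at 30 to 70%, and the largest (chr6:30739001-30740000, 5 CpGs) had 58.9 and 43.1% in WT, 55.5 and 41.1% in hSTAT5B and 59.3 and 41.7% in hSTAT5BN642H. In each genotype 1 library was at 55.5 to 59.3% and the other at 41.1 to 43.1%, and the genotype means differed by at most 2.67 points.

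Kcnq1ot1 is the antisense RNA that silences a cluster including Cdkn1c, an inhibitor of the cell cycle, on the paternal copy. The island in Kcnq1ot1, within an intron of Kcnq1 (chr7:143295405-143295824, 5 CpGs in 2 fragments, 140 to 268 reads), had 77.4 and 70.7% in WT, 57.3 and 63.9% in hSTAT5B and 80.9 and 36.1% in hSTAT5BN642H. The hSTAT5BN642H libraries were the highest and the lowest, an SD of 31.6 points. The Cdkn1c island at its gene start (chr7:143459056-143461477, 38 CpGs in 11 fragments, 510 to 1219 reads) had 30.3 and 48.7% in WT, 48.0 and 39.99% in hSTAT5B and 44.3 and 42.0% in hSTAT5BN642H. Here a WT library was lowest and the other 5 lay between 39.99 and 48.7%.

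Several members are retrogenes or small genes inside the intron of a host. Nap1l5, in an intron of Herc3, had at its start (chr6:58906724-58907147, 7 CpGs in 2 fragments, 98 to 362 reads) 57.4 and 77.2% in WT, 72.4 and 89.9% in hSTAT5B and 60.3 and 65.7% in hSTAT5BN642H. Nnat, in an intron of Blcap, had at its start (11 CpGs, 253 to 539 reads) 66.5 and 52.5% in WT, 76.7 and 63.9% in hSTAT5B and 68.5 and 73.1% in hSTAT5BN642H. Peg13, in an intron of Trappc9, had in its island (chr15:72809502-72810123, 13 CpGs, 273 to 676 reads) 54.6 and 53.2% in WT, 53.1 and 55.8% in hSTAT5B and 58.8 and 67.9% in hSTAT5BN642H. This Peg13 island was higher in both hSTAT5BN642H libraries than in the other 4, by 9.50 points against WT and 8.91 points against hSTAT5B (limma adjusted p = 0.805 and 0.838). Averaged with the adjoining bin, the 2 Peg13 regions had 47.9 and 55.1% in WT, 58.3 and 67.7% in hSTAT5B and 62.4 and 53.3% in hSTAT5BN642H. In that average hSTAT5BN642H overlapped both other genotypes. At Nnat both hSTAT5BN642H libraries were above both WT libraries, by 11.25 points (adjusted p = 0.831), and overlapped hSTAT5B. At Nap1l5 both were below both hSTAT5B libraries, with a difference of −18.20 points (adjusted p = 0.735), and overlapped WT.

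Zrsr1, a splicing factor retrogene in an intron of Commd1, had the narrowest range among islands of at least 18 CpGs. Its island (chr11:22971975-22972993, 20 CpGs in 9 fragments, 485 to 800 reads) had 60.7 and 53.5% in WT, 57.8 and 57.7% in hSTAT5B and 56.3 and 52.4% in hSTAT5BN642H. In contrast, a bin further into Zrsr1 (chr11:22974001-22975000), with 3 CpGs, 2 fragments and only 29 to 84 reads, had 92.9 and 88.9% in WT, 58.5 and 13.3% in hSTAT5B and 48.8 and 56.9% in hSTAT5BN642H. This bin gave the largest genotype differences of the 52 regions, −38.04 points for hSTAT5BN642H against WT and −54.95 points for hSTAT5B against WT (limma adjusted p = 0.654 and 0.759). The bin between them (chr11:22973001-22974000, 7 CpGs) had 35.0 and 54.2% in WT, 47.3 and 41.2% in hSTAT5B and 46.2 and 72.6% in hSTAT5BN642H, without that order.

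Impact, which regulates translation under stress, carried on chromosome 18 an island of 10 CpGs in 4 fragments at 44.8 and 46.1% in WT, 51.99 and 61.1% in hSTAT5B and 49.4 and 57.2% in hSTAT5BN642H. Both WT libraries were lowest. Slc38a4, an amino acid transporter gene, had at its start (chr15:97055001-97056000, 7 CpGs, 58 to 223 reads) 84.3 and 64.7% in WT, 63.5 and 62.5% in hSTAT5B and 54.1 and 69.4% in hSTAT5BN642H, where 1 WT library stood above the rest.

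Loci whose germline mark comes from sperm were represented by H19, Igf2 and the Dlk1 to Meg3 cluster. H19 is a noncoding RNA expressed from the maternal copy, and its control region upstream insulates Igf2 when unmethylated. The bin at the H19 start (chr7:142578001-142579000, 6 CpGs, 140 to 384 reads) had 45.9 and 65.7% in WT, 57.8 and 56.7% in hSTAT5B and 60.1 and 54.1% in hSTAT5BN642H. The upstream bin of the control region (chr7:142581001-142582000, 3 CpGs, 51 to 126 reads) had 54.1 and 49.0% in WT, 55.5 and 46.6% in hSTAT5B and 57.5 and 60.9% in hSTAT5BN642H. There both hSTAT5BN642H libraries were highest, by 7.67 points against WT. In Igf2, the growth factor gene, an intronic bin of 5 CpGs (chr7:142665001-142666000) had 35.8 to 52.9%.

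Meg3, a maternally expressed noncoding RNA, had just upstream of its start (chr12:109540001-109541000, 12 CpGs in 5 fragments, 215 to 425 reads) 55.7 and 50.2% in WT, 60.9 and 57.7% in hSTAT5B and 56.8 and 64.4% in hSTAT5BN642H. WT was lowest in both libraries, by 7.63 points against hSTAT5BN642H and 6.30 points against hSTAT5B. Dlk1, a paternally expressed inhibitor of differentiation, had a bin of 4 CpGs at a transcript start (chr12:109453001-109454000, 54 to 106 reads) with 29.8 and 63.5% in WT, 66.4 and 44.6% in hSTAT5B and 52.6 and 27.6% in hSTAT5BN642H. No genotype was uniform at Dlk1, and its CpGs had an SD of 28.7 points. The germline control region of this cluster lies between both genes, beyond the 5 kb taken here.

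**Figure D3:**
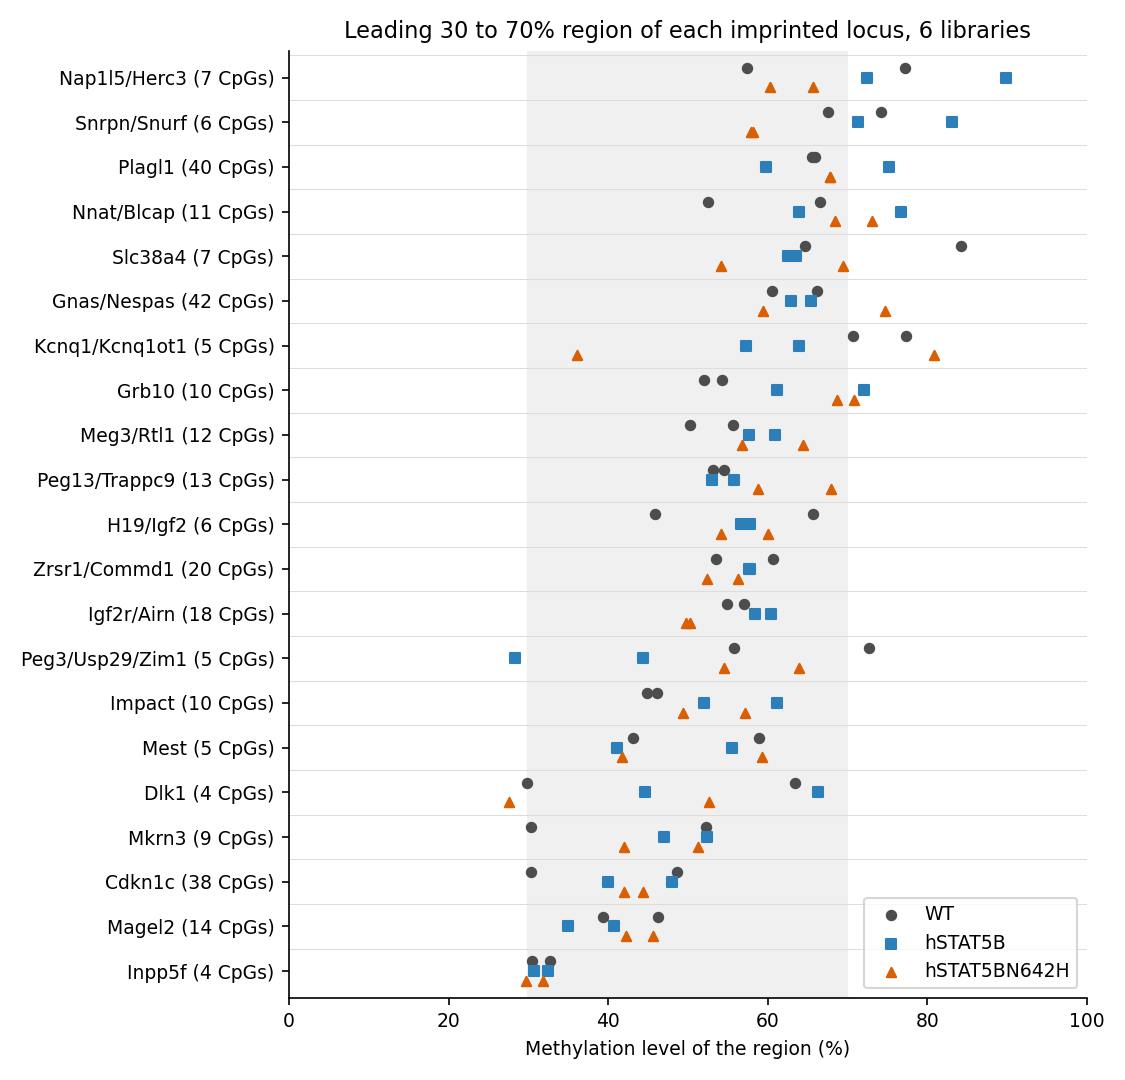
Methylation level (%) of the region with the most CpGs among those at 30 to 70% in each of the 21 loci, sorted by mean. Each symbol is 1 library (circles WT, squares hSTAT5B, triangles hSTAT5BN642H), the grey band spans 30 to 70%, and all 6 libraries of Zrsr1/Commd1, Igf2r/Airn and Magel2 lie within it, while libraries of Nap1l5, Snrpn/Snurf and Kcnq1ot1 lie above it.

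Members without a region at 30 to 70% were Ndn, Zim1, Phlda2, Peg10, Sgce, Mcts2, H13, Rtl1 and Rasgrf1. Mcts2, a retrogene within H13, had a well covered island at its start (chr2:152686810-152687230, 21 CpGs, 644 to 1080 reads) that was almost fully methylated, at 95.5 and 98.1% in WT, 95.7 and 95.3% in hSTAT5B and 92.3 and 94.4% in hSTAT5BN642H. It is counted among the maternally marked germline regions in other tissues, and no library here showed a middle level. Whether reads from another copy of the sequence were placed there was not tested, since the files hold no reads. Peg10 had 2 exonic bins at 96.7 and 83.9% pooled, and no region was measured at its start, where its mark lies. Phlda2 and Rasgrf1 were unmethylated at their start islands (4.8 and 5.6% pooled), and the germline region of Rasgrf1 lies upstream of the 5 kb taken. Zim1 had an island at its start with 9.97% pooled and 28.0% in 1 hSTAT5B library, against 3.8 to 12.6% in the others. Rtl1 and Sgce had bins of 92.9 to 98.4%.

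The rule's bounds cut through some loci. The members just inside were Snrpn/Snurf at 69.2% pooled, Inpp5f at 33.3% and Blcap at 32.9%. Just outside lay the Gnas island at 28.1%, the Grb10 island at 70.7% and a bin of H13 (chr2:152696001-152697000) at 70.6%.

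Between genotypes, no imprinted region passed the test. limma on the log ratios of methylated to unmethylated reads, adjusted over all 134342 regions, called 0 of the 52 regions at 30 to 70% and 0 of the 143 others at an adjusted p of 0.05 in each of the 3 comparisons, and 0.0% of all regions. At an unadjusted p of 0.05 it named 1, 3 and 2 of the 52 regions for hSTAT5BN642H against WT, hSTAT5B against WT and hSTAT5BN642H against hSTAT5B (1.92, 5.77 and 3.85%), where it named 7.18, 6.28 and 7.15% of all regions and 7.35, 2.83 and 5.48% of other autosomal regions at 30 to 70%. A quasi-binomial model of the reads called 0 of the 52 in each comparison, with 8, 7 and 8 at an unadjusted p of 0.05 (15.4, 13.5 and 15.4%), against 8.5, 5.11 and 8.44% of all regions and 18.3, 8.38 and 15.7% of other autosomal regions at 30 to 70%. Fisher's exact test on reads pooled within a genotype called 12, 10 and 11 (23.1, 19.2 and 21.2%), against 8.63, 3.34 and 8.22% of all regions and 23.1, 8.87 and 19.8% of the others at 30 to 70%, but it takes no account of the spread between libraries. By both, the share was near that of regions of like level in the comparisons with hSTAT5BN642H and higher for hSTAT5B against WT, a difference that was not tested. With 2 libraries per genotype, the absence of a call does not show that levels were equal.

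The difference was at least 5 percentage points with libraries that did not overlap in 18 of 52 regions for hSTAT5BN642H against WT (34.6%, 10 higher and 8 lower), where 14.7% of all regions and 36.3% of other autosomal regions at 30 to 70% did so. For hSTAT5B against WT it was 16 regions (30.8%, 10 higher and 6 lower), against 11.4% of all and 27.7% of the others. For hSTAT5BN642H against hSTAT5B it was 12 regions (23.1%, 6 higher and 6 lower), against 14.7% of all and 35.7% of the others. Other regions of middle level passed this mark more often than all regions, and against regions of like level the imprinted share was near the background in both comparisons with WT and lower in the third. The comparisons share libraries and are not independent. In none of the 52 regions did all 6 libraries rank by genotype, WT, hSTAT5B and hSTAT5BN642H in this order or its reverse.

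**Figure D4:**
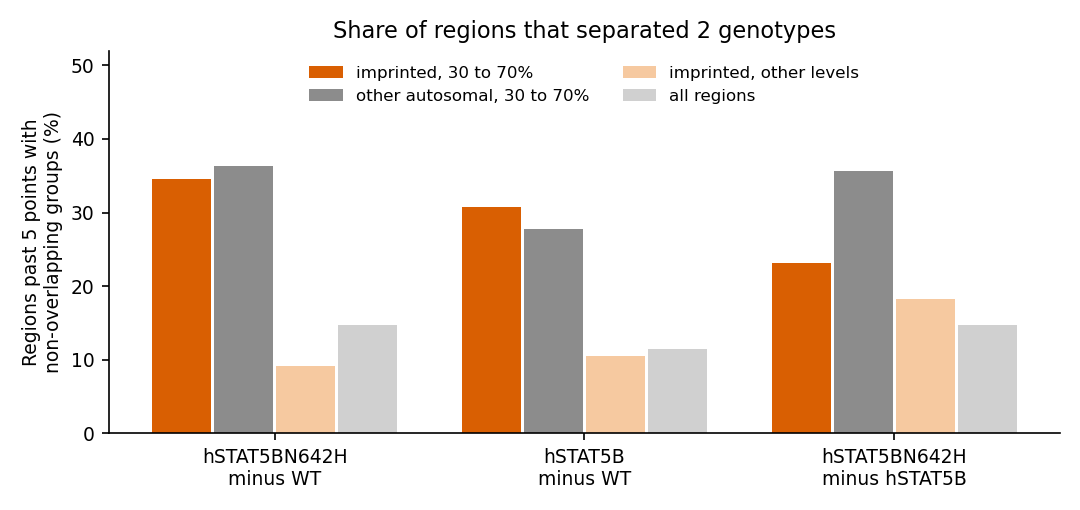
Percentage of regions with a difference of at least 5 percentage points and genotypes whose 2 libraries each do not overlap, in 3 comparisons. The 52 imprinted regions of 30 to 70% reached 34.6, 30.8 and 23.1%, the 8736 others 36.3, 27.7 and 35.7%, and the 143 imprinted regions at other levels 9.09, 10.5 and 18.2%.

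Averaged over the 52 regions, the libraries lay between 54.3 and 55.7%. The mean was 54.7 and 55.6% in WT, 55.7 and 55.5% in hSTAT5B and 54.7 and 54.3% in hSTAT5BN642H. By genotype this was 55.1% ± 0.65, 55.6% ± 0.076 and 54.5% ± 0.28 (SD, n = 2). hSTAT5BN642H minus WT was −0.65 points, with 26 regions higher and 26 lower and a median of −0.14 points. hSTAT5B minus WT was 0.49 points, with 33 higher and 19 lower, and hSTAT5BN642H minus hSTAT5B was −1.14 points, with 22 higher and 30 lower. Both hSTAT5BN642H libraries were below both hSTAT5B libraries in this average. Its sign was not stable, since hSTAT5BN642H minus WT was 0.52 points with at least 10 reads per CpG and hSTAT5BN642H minus hSTAT5B was 0.28 points over regions at 40 to 60%. Over all regions the corresponding differences were −0.61, 0.16 and −0.77 points.

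By the origin of the germline mark of the locus, the 39 regions of maternally marked loci averaged 57.9% ± 0.11 in WT, 57.9% ± 0.26 in hSTAT5B and 56.7% ± 0.31 in hSTAT5BN642H, a difference of −1.22 points between hSTAT5BN642H and WT, with 18 regions higher and 21 lower. This grouping is by locus and includes the Igf2r start and the NESP55 end of Gnas, which are methylated on the paternal copy in somatic tissue. The 6 regions of the H19, Igf2, Dlk1 and Meg3 loci averaged 48.5% ± 4.31, 51.0% ± 1.81 and 50.9% ± 4.89, and the 7 of Cdkn1c, Magel2 and Mkrn3 45.3% ± 1.75, 46.5% ± 2.46 and 45.3% ± 0.35. Islands and bins went opposite ways for hSTAT5BN642H against WT, with 1.43 points over 17 islands and −1.67 points over 35 bins.

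In most loci the regions did not share a direction. Of the 14 loci with at least 2 regions at 30 to 70%, hSTAT5BN642H was above WT in all regions of 3 loci (Plagl1, Meg3 and Nnat/Blcap), below in all regions of 2 (Igf2r/Airn and Snrpn/Snurf), and in both directions in 9. For hSTAT5B against WT these counts were 4, 1 and 9, and for hSTAT5BN642H against hSTAT5B 2, 4 and 8. Among the leading regions of the 21 loci, the sign of hSTAT5BN642H minus WT turned in 12 when 1 library was left out.

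Scatter between libraries of a genotype was about as large as that between genotypes. The median difference between libraries of the same genotype was 7.98 points over the 52 regions and that between genotypes 8.18 points. The variance of the reads over all 6 libraries, genotype differences included, was a median of 4.18 times that of sampling independent reads. It was 2.85 times in other autosomal regions of 30 to 70%. By kind of region it was 8.87 times in imprinted and 6.27 times in other islands, and 3.22 and 2.79 times in bins. All 6 libraries were themselves at 30 to 70% in 22 of the 52 regions. The scatter went with the number of MspI fragments behind a region. The range over the libraries had a median of 23.8 points in the 24 regions with 1 or 2 fragments and 16.6 points in the 28 with 3 or more, against 20.7 and 15.2 points in other autosomal regions. Fragments and read numbers rise together, and their parts were not separated.

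**Figure D5:**
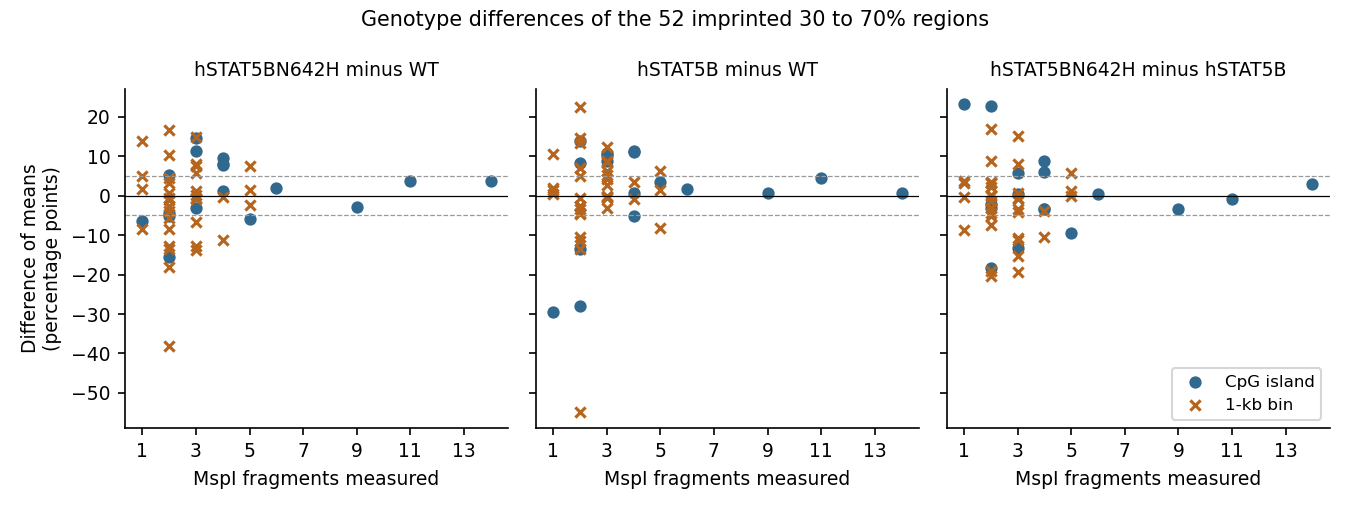
Difference of genotype means (percentage points) for each of the 52 imprinted regions at 30 to 70% against the number of MspI fragments measured in it, for the 3 comparisons. Circles are islands, crosses 1-kb bins, and dashed lines mark 5 points on either side of 0. Differences spread widest at 1 to 3 fragments and stay within 5 points at 6 or more.

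The scatter was spread over the libraries. The number of the 52 regions at 30 to 70% was 39 and 46 in WT, 42 and 40 in hSTAT5B and 45 and 46 in hSTAT5BN642H. The hSTAT5B replicate 2 library was the highest of the 6 in 17 regions, and the others in 6 to 8. The WT replicate 1 and hSTAT5BN642H replicate 2 libraries were the lowest in 12 and 11 regions, and the others in 7 or 8.

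Among the 5 largest separated differences between hSTAT5BN642H and WT in the 52 regions, 4 were lower in hSTAT5BN642H. They were the Zrsr1/Commd1 bin (−38.04 points), the Snrpn/Snurf intronic and start bins (−13.71 and −12.86 points) and the Grb10 gene start bin (−13.61 points), and the Grb10 internal start bin was higher (16.59 points). All 5 were bins of 3 to 10 CpGs in 2 or 3 fragments. None of the larger islands of Gnas, Plagl1, Cdkn1c, Zrsr1 and Igf2r was among them.

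The imprinted genes' regions at other levels lay by the same rule under 30% or over 70% when pooled. The 26 regions under 30% averaged 6.65% ± 1.08 in WT, 6.70% ± 0.17 in hSTAT5B and 7.95% ± 0.69 in hSTAT5BN642H, and the 117 regions over 70% averaged 92.6% ± 0.58, 92.5% ± 0.58 and 92.2% ± 0.29. hSTAT5BN642H minus WT over those 117 was −0.38 points, where all regions over 70% gave −0.99 points. Past 5 points without overlap were 13, 15 and 26 of the 143 (9.09, 10.5 and 18.2%), against 14.7, 11.4 and 14.7% of all regions, and 12, 9 and 11 (8.39, 6.29 and 7.69%) had an unadjusted limma p under 0.05, against 7.18, 6.28 and 7.15% of all regions. Islands at a fixed low level included 1 in Grb10 just inside its gene start bin (chr11:12036490-12037889, 40 CpGs, 4.5 to 6.8%) and Igf2 (chr7:142658372-142661318, 37 CpGs, 2.9 to 4.8%).

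The 5 largest separated differences between hSTAT5BN642H and WT at other levels were all in bins of 3 to 5 CpGs. At an Igf2 transcript start (chr7:142657001-142658000, 30 to 63 reads) the levels were 48.7 and 64.4% in WT, 72.2 and 58.0% in hSTAT5B and 76.0 and 74.1% in hSTAT5BN642H, and the difference was 18.50 points. In an exon of Plagl1 (chr10:13108001-13109000) they were 94.8 and 98.8% in WT, 98.8 and 96.2% in hSTAT5B and 91.3 and 78.2% in hSTAT5BN642H, with a single hSTAT5BN642H library far below. The others were a bin downstream of Dlk1 (chr12:109466001-109467000, 11.93 points), a Meg3 intron (chr12:109548001-109549000, −11.56 points) and a bin upstream of Plagl1 (chr10:13059001-13060000, 9.99 points). limma's adjusted p was 0.667 to 0.767 for these 5.

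Genes that act on imprints were listed with the set, among them Zfp57, Zfp445, Trim28, Dnmt1 and Uhrf1, which help to keep them, the de novo methyltransferases, and the TET genes, whose enzymes oxidize methylated cytosine and act in its removal. All 15 had a measured region, 110 in all, of which 4 were at 30 to 70%. limma called 0 in each comparison, with 4, 4 and 10 (3.64, 3.64 and 9.09%) at an unadjusted p of 0.05 for hSTAT5BN642H against WT, hSTAT5B against WT and hSTAT5BN642H against hSTAT5B, where all regions gave 7.18, 6.28 and 7.15%. The median differences were −0.25, 0.12 and −0.37 points, where the medians over all regions were −0.49, 0.11 and −0.61 points. Dppa3, which protects maternal marks in the zygote, had at its start 85.8 and 81.9% in WT, 87.7 and 85.5% in hSTAT5B and 75.6 and 66.2% in hSTAT5BN642H. Over its 4 regions the levels were closer, at 77.5 and 77.8% in WT, 81.4 and 80.5% in hSTAT5B and 76.0 and 76.6% in hSTAT5BN642H. At an unadjusted limma p of 0.05, hSTAT5BN642H differed from WT in 0 of these regions and from hSTAT5B in 1.

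Markers of the sorted cells were checked by their methylation, in which a gene active in a lineage is often unmethylated there. Mean levels over Cd8a (1 region, 7 CpGs) were 49.4 and 17.03% in WT, 18.0 and 25.2% in hSTAT5B and 10.1 and 5.6% in hSTAT5BN642H. Those over Cd8b1 (1 region, 6 CpGs) were 37.8 and 37.8%, 18.8 and 17.5%, and 8.5 and 11.8%. Over the 7 regions of the 5 CD8 T cell markers the mean was 60.6 and 56.1% in WT, 56.0 and 54.1% in hSTAT5B and 48.8 and 50.5% in hSTAT5BN642H. Cd3e, with 91.6 and 85.2% in WT and 90.3 and 89.97% in hSTAT5BN642H, and Cd3g, with 14.9 and 13.8% against 15.1 and 15.0%, did not share the order of the CD8 genes. Cd3d had 72.7 and 84.6% in WT, 91.25 and 80.0% in hSTAT5B and 64.9 and 75.9% in hSTAT5BN642H, where hSTAT5BN642H overlapped WT. Both CD8 genes had their lowest levels in the hSTAT5BN642H libraries. limma called 0 of the 7 regions in each comparison. At an unadjusted p of 0.05 it named 2, 1 and 0 (28.6, 14.3 and 0%), where all regions gave 7.18, 6.28 and 7.15%. The CD4 T cell and myeloid markers differed less. The 10 regions of the CD4 T cell markers had 27.8 to 31.8% in the 6 libraries, with Cd4 at 36.3 to 38.7% and Zbtb7b at 1.75 to 5.57%. The 16 regions of the myeloid markers had 77.8 to 80.7%, but the genes differed widely. Csf1r was at 93.4 to 97.0%, Itgam at 92.8 to 94.3% and Lyz2 at 94.5 to 97.9%, while Spi1 was at 37.5 to 43.9% and Cebpa at 0.96 to 3.47%. Methylation gives no level of RNA, and whether the make-up of the libraries bears on the imprinted regions was not tested.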

How the data were processed

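Single-end RRBS reads from 6 libraries had been trimmed with Trimmomatic and aligned to GRCm38 (mm10) with BSMAP, per the submitters' processing notes, in versions not given in the sources used here, and counted per CpG with the authors' own scripts. The deposited files give, per CpG, counts of methylated and of all reads (used here) and a score of 0 to 1000, the methylation fraction the authors rescaled, which served only as a check. Libraries differ in depth, and CpGs in few MspI fragments rest on few molecules. Genes came from GENCODE M21. CpG islands were called on the GRCm38.p6 sequence (score 17 per CpG and -1 per other base, over 200 bp, GC over 50%, observed/expected over 0.6). The level of a region was the unweighted mean of its CpGs, and its class came from pooled reads. limma 3.58.1 in R 4.3.3 was fitted to log2 ratios of methylated to unmethylated reads (offset 1) in all 6 libraries with genotype as the only factor, with Benjamini-Hochberg adjustment over all regions, and was tested on simulated data. Tables were made with Python 3.11.15, numpy 2.4.6 and pandas 2.3.3.

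Named were the region with the most CpGs at 30 to 70% in each locus and the 5 regions with the largest separated difference between hSTAT5BN642H and WT at 30 to 70% and at other levels. The B cell markers and the sequence of 1 region are not reported here. The members, lists and tests were chosen with earlier results of these data known. Alternatives covered read minimums, flank, class bounds, islands alone, other tests and leaving out each library.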

Additional observations from a re-analysis of the deposited data

How the results depend on the processing

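Of 155 alternative values of the counts and mean differences, 117 stayed within 1.5 times the count or within 1 SD of the replicates, and 38 moved. With 2 libraries per genotype, leaving out 1 library cannot move a mean difference by this rule, so those values are no test of stability. Leaving out CpGs with 1000 or more reads changed none of the values, so these do not test stability either. The cause was not tested except where stated. hSTAT5BN642H minus WT over the regions at 30 to 70% was 0.52 points with at least 10 reads per CpG, -1.96 with at least 1 read, -0.0058 with 50 kb flanks, 1.01 over regions at 40 to 60% and 1.43 over islands alone. For hSTAT5B minus WT, 10 reads gave 2.52 and 1 read -0.44 points. For hSTAT5BN642H minus hSTAT5B the values were -2.01 with 10 reads, -1.52 with 1 read, -0.096 with 50 kb, 0.28 at 40 to 60% and 0.81 over islands. Over the other regions, 1 read gave -0.63 points against WT, and 1 and 10 reads gave -0.59 and -0.54 points against hSTAT5B.

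Separated regions past 5 points numbered 8 at 40 to 60% and 5 over islands for hSTAT5BN642H against WT, 25 with 50 kb, 7 at 40 to 60% and 5 over islands for hSTAT5B against WT, and 20 with 1 read, 19 with 50 kb and 7 over islands for hSTAT5BN642H against hSTAT5B. Fewer regions enter at 40 to 60% (27 in 20 genes) and over islands (17). Leaving out 1 library gave 21 to 29, 24 to 30 and 20 to 30 such regions, by construction more, since a lone library overlaps less. For hSTAT5BN642H against WT the count was 29 without either WT library, and 27 and 21 without hSTAT5BN642H replicate 1 and 2. For hSTAT5B against WT it was 24 and 29 without WT replicate 1 and 2, and 30 and 27 without hSTAT5B replicate 1 and 2. For hSTAT5BN642H against hSTAT5B it was 30 and 20 without hSTAT5B replicate 1 and 2, and 24 without either hSTAT5BN642H library.

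Leaving out 1 library, the mean differences at 30 to 70% ran from -1.11 to -0.19, 0.031 to 0.95 and -1.34 to -0.94 points, and those of the other regions from -0.55 to 0.40, -0.52 to 0.43 and -0.35 to 0.28 points. limma called 0 regions under each of these and with the replicate block, where the lone library was taken to vary like the others. Fisher's exact test on pooled reads called 12, 10 and 11 of the 52, and 8.63, 3.34 and 8.22% of all regions.

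Replicate numbers share no litter or batch in the labels, and deviations of same-numbered libraries correlated at 0.0037 to 0.0043 across regions, so no pairing was used. The replicate block left 0 calls and 1, 2 and 3 regions at an unadjusted p of 0.05. Regions with 1 or 2 fragments rest on few molecules.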

Other observations

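Imprinted genes outside the list of 40 gave further values. Of 35 such genes, 33 had a measured region (all but Tspan32 and Ins2), with 133 regions, of which 13 were at 30 to 70%. limma called 0 of the 133 in each comparison, with 11, 5 and 12 (8.27, 3.76 and 9.02%) at an unadjusted p of 0.05 for hSTAT5BN642H against WT, hSTAT5B against WT and hSTAT5BN642H against hSTAT5B, where all regions gave 7.18, 6.28 and 7.15%. Peg12, a retrogene of the Prader-Willi cluster, had an island of 55 CpGs (chr7:62463585-62464534) at 28.6 and 33.3% in WT, 38.4 and 34.3% in hSTAT5B and 33.3 and 25.4% in hSTAT5BN642H. Slc22a3, a cation transporter gene of the Igf2r cluster, had a bin of 5 CpGs (chr17:12507001-12508000) at 62.5 and 72.0% in WT, 68.7 and 69.2% in hSTAT5B and 44.0 and 55.3% in hSTAT5BN642H. Both hSTAT5BN642H libraries were lowest there (limma adjusted p = 0.762 against WT). A bin of Cdh15 was also lower in both hSTAT5BN642H libraries than in WT, by -6.24 points. Bins of Ppp1r9a (chr6:5103001-5104000) and Osbpl5 (chr7:143758001-143759000) were higher than in WT in both, by 14.51 and 12.12 points (limma adjusted p = 0.663 and 0.860).

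Asb4, which lies in the Peg10 cluster, was singled out after its values were seen. A bin of 6 CpGs (chr6:5383001-5384000, 190 to 387 reads) was at 47.7 and 5.26% in WT, 9.23 and 7.10% in hSTAT5B and 49.2 and 46.4% in hSTAT5BN642H. The adjoining bin of 4 CpGs (chr6:5384001-5385000) was at 39.1 and 12.5% in WT, 5.42 and 16.1% in hSTAT5B and 46.1 and 47.8% in hSTAT5BN642H. A WT library and both hSTAT5BN642H libraries were at a middle level in both bins, and the other WT library and both hSTAT5B libraries were low (limma adjusted p = 0.659 and 0.657 for hSTAT5BN642H against hSTAT5B).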
